A study of Mus musculus with 6 samples.

Results

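The 9 genes Mrgprb1, Mrgprb2, Fcer1a, Ms4a2, Kit, Hdc, Tph1, Slc6a4 and Rgs13 encode mast cell surface receptors, enzymes and a transporter of histamine and serotonin, and 1 intracellular regulator of receptor signalling. They were chosen by their measured values in the comparison described here, transgenic against wild-type fat, so their differences between the genotypes are given as a description, with no test. They are 9 of the 22180 genes that had at least 1 row of their own on the array, and each of the 9 had exactly 1 such row. All 9 read lower in every transgenic array than in every wild-type array, as did 9.35% of all rows. The median difference was -1.17 on the log2 scale, against -0.01 over all 41345 rows. With only WT 1, Tg 1 and Tg 3 the median difference was -0.56. That subset keeps WT 1 as its only WT array, the lowest WT array in all 9 members. Among the arrays left out, WT 2 and WT 3 read high in 6 epithelial, tract and muscle genes chosen after their values were seen. Tg 2 read high in epididymis markers, in which WT 2 and WT 3 did not. The part of these transcripts in the members' values was not tested.

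The arrays measured total RNA of the epididymal fat pad (eWAT, a visceral depot attached to the epididymis) from 6 male C57BL/6 mice aged 8 months. Wild-type mice (WT 1 to WT 3) were compared with mice carrying an adipose-specific Blnc1 transgene (Tg 1 to Tg 3), Blnc1 being a noncoding transcript studied mainly in brown fat. Both groups had eaten the high-fat diet D12492 for 21 weeks, so no lean diet enters the comparison. The promoter that drives the transgene, the number of founder lines and the littermate status are not given in the sources used here. The labels call the 3 samples of a group biological replicates, and each was taken as 1 mouse. No row carried the symbol Blnc1, so the arrays give no check of the genotype labels.

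Mast cells are tissue-resident immune cells that store histamine, serotonin, heparin and proteases in granules. They are set off through the high-affinity IgE receptor, whose alpha chain (Fcer1a) binds IgE and whose beta chain (Ms4a2) amplifies the signal, or through Mas-related receptors such as Mrgprb2, which respond to basic peptides and small molecules without IgE. Their survival rests on Kit, the receptor of stem cell factor. Histamine is made by histidine decarboxylase (Hdc), serotonin by tryptophan hydroxylase (Tph1 outside the brain) followed by aromatic amino acid decarboxylase (Ddc), and both amines are loaded into granules by the vesicle transporter Slc18a2. Slc6a4 takes serotonin up from outside the cell. In fat of rodents and humans mast cells lie along vessels and between adipocytes.

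The transcription factors GATA2, MITF and PU.1 are known regulators of mast cell genes, so the sequences before the start sites of the members were searched for their short core motifs. For GATA factors the hexamers were AGATAA as well as AGATAG, further TGATAA as well as TGATAG. For MITF they were CATGTG as well as CACGTG, and for PU.1 the hexamer was GAGGAA. All were searched on both strands. All 9 members matched the RefSeq promoter table of build GRCm38.p6, which gives 250 bases before and 50 bases after a start site, with 11 windows in all because Kit and Tph1 had 2 each. The deposited table names no build, and the sequences were not used to place any probe. Below are the 250 bases before the start site of the Mas-related receptor pair, of both private chains of the IgE receptor and of Rgs13, the member with the most GATA motifs, each 5′ to 3′ on the gene's own strand. All 5 genes lie on the minus strand, and capitals mark the GATA hexamers as read on the printed strand, where TTATCT stands for AGATAA on the other strand and TTATCA stands there for TGATAA. The stretches lie at chr7:48456343-48456592 (Mrgprb1), chr7:48558087-48558336 (Mrgprb2), chr1:173227230-173227479 (Fcer1a), chr19:11623720-11623969 (Ms4a2) and chr1:144177373-144177622 (Rgs13), each ending just before the annotated start site.
Mrgprb1: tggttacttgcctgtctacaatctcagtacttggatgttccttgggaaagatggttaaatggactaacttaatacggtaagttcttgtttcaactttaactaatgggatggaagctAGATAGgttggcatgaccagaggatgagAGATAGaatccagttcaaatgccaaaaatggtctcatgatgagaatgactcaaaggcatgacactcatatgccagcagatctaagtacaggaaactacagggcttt
Mrgprb2: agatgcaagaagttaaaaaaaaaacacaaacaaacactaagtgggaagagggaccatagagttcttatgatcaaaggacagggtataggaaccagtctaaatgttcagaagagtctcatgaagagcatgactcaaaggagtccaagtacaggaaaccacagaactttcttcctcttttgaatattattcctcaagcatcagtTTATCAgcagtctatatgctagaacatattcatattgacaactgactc
Fcer1a: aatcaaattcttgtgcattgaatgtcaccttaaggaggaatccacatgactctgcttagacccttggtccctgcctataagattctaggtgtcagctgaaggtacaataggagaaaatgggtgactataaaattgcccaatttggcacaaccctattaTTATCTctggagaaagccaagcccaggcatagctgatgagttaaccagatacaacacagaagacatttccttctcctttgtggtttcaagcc
Ms4a2: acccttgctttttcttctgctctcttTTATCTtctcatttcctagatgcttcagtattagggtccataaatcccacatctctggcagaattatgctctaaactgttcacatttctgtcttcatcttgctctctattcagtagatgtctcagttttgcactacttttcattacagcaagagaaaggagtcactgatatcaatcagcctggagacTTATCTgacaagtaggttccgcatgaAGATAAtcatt
Rgs13: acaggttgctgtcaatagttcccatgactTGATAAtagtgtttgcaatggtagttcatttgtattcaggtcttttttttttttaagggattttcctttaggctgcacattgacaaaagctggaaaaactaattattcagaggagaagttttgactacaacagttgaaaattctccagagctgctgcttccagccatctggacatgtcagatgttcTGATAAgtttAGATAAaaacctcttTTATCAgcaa

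A GATA hexamer lay in the window of 8 of the 9 members, all but Kit, against 33.0% of the 27025 genes in the promoter table. The members' windows were poorer in G and C than most, with a median GC content of 45.0% against 52.7% over all windows, and among the 7574 windows at or below 45.0% GC the share holding a GATA hexamer was 52.4%. That share counts windows, not genes, and the windows of Slc6a4 (67.7% GC) and Hdc (50.7% GC) lay above 45.0%. Ms4a2 held 3 GATA hexamers, the nearest starting 11 bases before the start site, and Rgs13 held 4, of which 3 started within 35 bases of it. The MITF hexamers lay in 2 members, Slc6a4 and Fcer1a, against 22.7% of genes. GAGGAA lay in 4 members, Mrgprb2, Tph1, Kit and Fcer1a, against 31.3% of genes. No motif of one factor overlapped that of another, and none lay at or after a start site. The full windows of Mrgprb1 and Mrgprb2 could be aligned over 213 bases, of which 149, or 70.0%, were identical. A match describes letters in a window and is not a measured binding site.

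Mrgprb1 and Mrgprb2, receptor genes of the Mas-related family that lie close together, both read lower in Tg, and Mrgprb1 had the largest difference of the 9. Mrgprb1 read 4.57, 6.34 and 5.92 in WT 1, WT 2 and WT 3 and 3.72, 3.34 and 3.42 in Tg 1, Tg 2 and Tg 3, all on the deposited log2 scale. The groups lay 0.85 apart at their nearest arrays, the widest gap of the 9 genes, and WT 1 stood well below the other WT arrays. The mean was 5.61 ± 0.93 (SD, n = 3) in WT and 3.49 ± 0.20 in Tg, a difference of -2.12 ± 0.44 (SE of the fit), or 4.34-fold. Mrgprb2, the receptor through which many cationic drugs and peptides activate mouse mast cells, read 2.33, 3.75 and 3.02 in WT and 2.07, 1.87 and 1.65 in Tg. Its difference was -1.17 ± 0.35, or 2.25-fold. The lowest WT array and the highest Tg array were 0.25 apart, and Mrgprb2 exceeded the median of all rows in 2 arrays only, WT 2 and WT 3, so most of its values lie in the dim range, where RMA compresses differences.

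The private chains of the IgE receptor had the same order over the WT arrays. Fcer1a, which binds IgE, read 2.97, 4.50 and 3.92 in WT and 2.76, 2.50 and 2.58 in Tg. WT 1 was 0.20 above the highest Tg array, whereas WT 2 and WT 3 were more than 1 above it. The mean was 3.79 ± 0.77 in WT and 2.61 ± 0.13 in Tg, a difference of -1.18 ± 0.37, or 2.27-fold. Fcer1a exceeded the array median in 4 arrays only, with Tg 2 and Tg 3 below it in the dim range. Ms4a2, the beta chain, read 3.96, 5.58 and 5.04 in WT and 3.47, 3.51 and 3.02 in Tg. Its difference was -1.52 ± 0.40, or 2.87-fold, with 0.45 between the nearest arrays of the groups.

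Kit, which mast cells share with other cells, had the smallest difference of the 9. It read 6.61, 7.21 and 6.88 in WT and 6.51, 6.18 and 6.22 in Tg. The highest Tg array came within 0.10 of the lowest WT array, the narrowest gap among the members. The difference was -0.60 ± 0.18, or 1.51-fold, between means of 6.90 ± 0.30 and 6.30 ± 0.18. Kitl, the gene of stem cell factor, the ligand of Kit, overlapped between the groups and differed by -0.06 ± 0.12 (adjusted p = 0.886 in limma over all rows).

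Of the members that make or move amines, Tph1 differed most. Tph1, the rate-limiting enzyme of serotonin synthesis outside the brain, read 3.12, 5.30 and 4.66 in WT and 2.61, 2.70 and 2.20 in Tg. Its WT arrays spread over more than those of any other member, with an SD of 1.12 against 0.27 in Tg. The difference was -1.85 ± 0.53, or 3.61-fold, and WT 1 lay 0.42 above the highest Tg array. Tph1 exceeded the array median in 4 arrays only, with Tg 1 and Tg 3 below it in the dim range. Slc6a4, the serotonin transporter, read 3.86, 4.60 and 4.05 in WT and 3.26, 2.84 and 2.90 in Tg. Here WT 1 stood nearer to the other WT arrays, and the groups were 0.60 apart. The difference was -1.17 ± 0.22, or 2.25-fold. Hdc, which makes histamine, read 4.38, 5.29 and 4.90 in WT and 4.21, 3.74 and 3.46 in Tg. Tg 1 came within 0.16 of WT 1, and the difference was -1.05 ± 0.28, or 2.07-fold.

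Rgs13, a regulator of G protein signalling that restrains IgE receptor signalling in mast cells and is also found in germinal centre B cells, had the dimmest row of the 9. It read 1.74, 1.88 and 1.82 in WT and 1.05, 1.07 and 1.31 in Tg. Every value lay below the median of all rows in its array, so Rgs13 is described by its level only and its presence in the tissue was not established. The difference was -0.67 ± 0.11, or 1.59-fold, with 0.43 between the groups, and Rgs13 was the 1 member whose WT arrays spread less (SD 0.07) than its Tg arrays (SD 0.14).

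**Figure D1:**
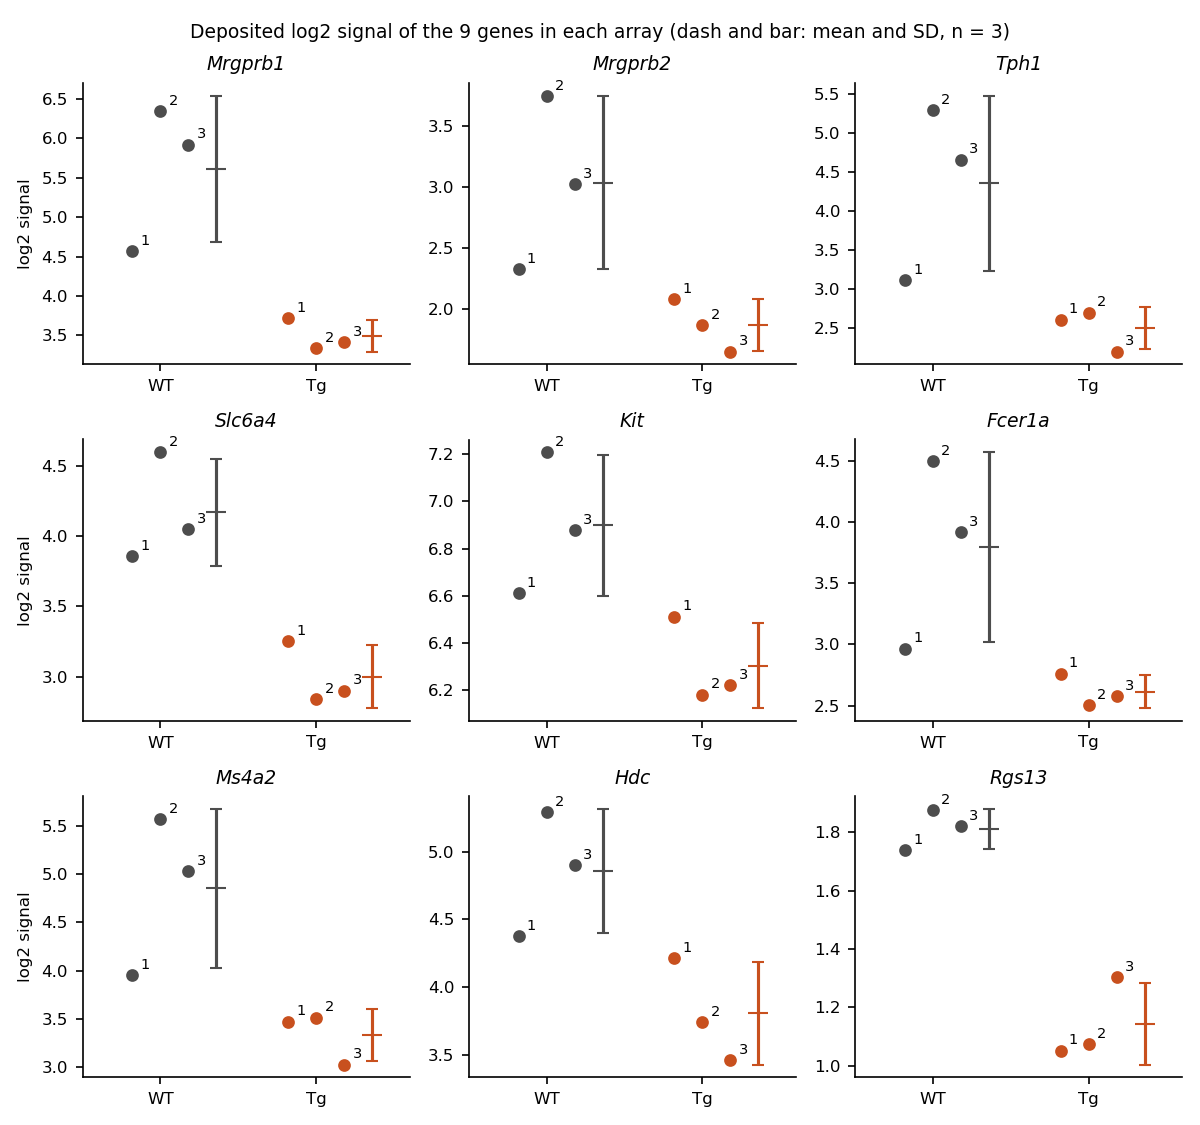
Deposited log2 signal (vertical axis, a separate scale for each gene) of the 9 genes in WT 1 to WT 3 (grey) and Tg 1 to Tg 3 (orange); points are arrays, labelled with their replicate number, and the dash and bar are the mean and SD (n = 3). In all 9 panels every Tg point lies below every WT point, WT 2 is the highest and WT 1 the lowest WT array.

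All 9 members had their groups apart with Tg lower, where 9.35% of all 41345 rows did, but since this contrast chose the members nothing is read from that count. In limma over all rows, 0% of rows had an adjusted p of 0.05 or below (0 of 41345), and the smallest adjusted p was 0.196. Without adjustment 4263 rows had a p under 0.05, of which 2432 were lower and 1831 higher in Tg. In bulk tissue, fewer mast cells and less RNA of these genes per cell cannot be told apart.

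The order of the arrays within the WT group was the same in every member. WT 2 was the highest and WT 1 the lowest WT array in 9 of 9 members. Among the Tg arrays, Tg 1 was the highest in 6 members, Tg 2 in 2 (Tph1 and Ms4a2) and Tg 3 in 1 (Rgs13). The median SD of the members was 0.71 over the WT arrays and 0.21 over the Tg arrays, while the median row of the array had an SD of 0.16 in either group. In 7 of 9 members WT 1 lay nearer to the Tg mean than to the mean of WT 2 and WT 3. The exceptions were Slc6a4 and Rgs13. As a mean over the 9 genes relative to each gene's own mean, the arrays read -0.02, 1.19 and 0.72 in WT and -0.45, -0.66 and -0.77 in Tg.

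Genes of other tissues shared part of this order, with WT 1 the lowest WT array but WT 3 the highest. Epithelial, smooth muscle and reproductive tract transcripts read higher in WT 2 and WT 3 than in WT 1 in 6 genes chosen after their values were seen (Pax8, Spink8, Ptgs2, Epcam, Cdh1 and Myh11). Spink8, an epididymal protease inhibitor gene, read 1.21, 6.55 and 8.09 in WT and 1.17, 2.53 and 1.16 in Tg. The mean of the 6 genes relative to their own means was -1.38, 1.46 and 2.06 in WT and -0.94, 0.14 and -1.34 in Tg, and their summed level (log2 of the sum of the unlogged values) ran from 7.76 to 10.6 in WT and from 7.43 to 8.10 in Tg. Of a list of 25 epididymis and male tract markers, 22 were measured, and their summed level ran from 5.87 to 6.23 in WT and from 5.92 to 12.1 in Tg, the high value being that of Tg 2. In Tg 2 the epididymal lipocalin gene Lcn9 read 9.87 and the epididymal peroxidase gene Gpx5 read 10.8. T and B lymphocyte markers also had WT 1 lowest and WT 3 highest, with array means of -0.57, 0.75 and 1.10 in WT and 0.22, -0.81 and -0.70 in Tg over 8 of 10 listed genes, and summed levels of 11.3 to 12.1 in WT and 10.9 to 11.6 in Tg. All 8 lymphocyte genes read lower in Tg on average, with a median difference of -0.86, and 0 were apart. The part of these other tissues and cells in the members' values was not tested.

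**Figure D2:**
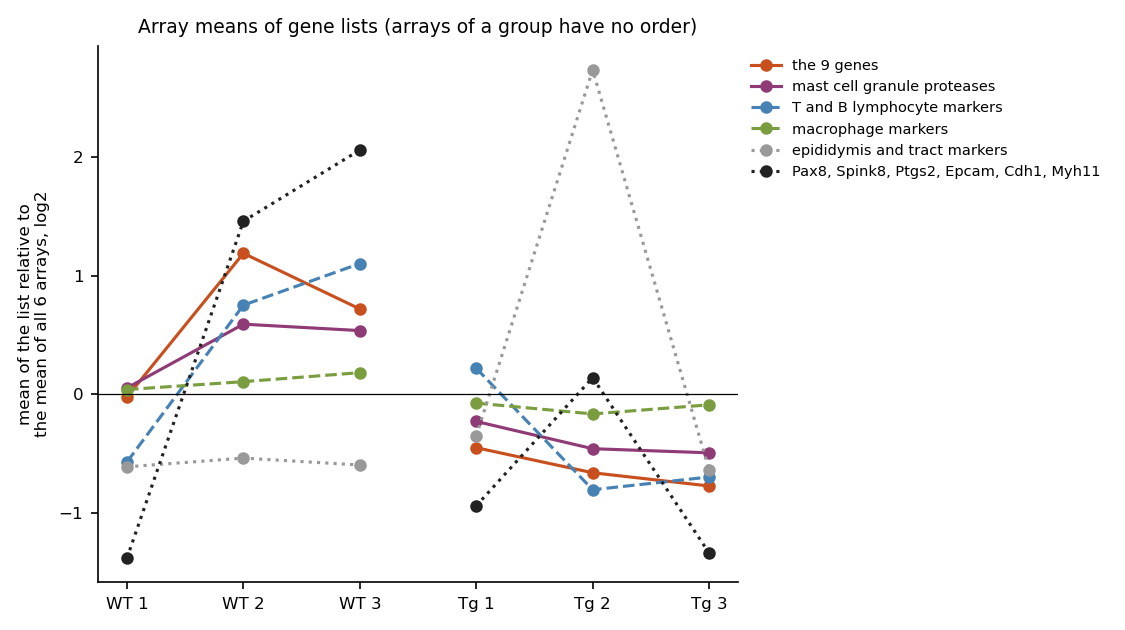
Mean of each gene list in each array relative to each gene's mean over the 6 arrays (vertical axis, log2), for the 9 genes, the granule proteases, lymphocyte, macrophage and epididymis markers, and the 6 epithelial, tract and muscle genes chosen after their values were seen; lines only join the points of a list. The 9 genes read -0.02, 1.19 and 0.72 in WT and -0.45, -0.66 and -0.77 in Tg, and the epididymis markers stand out in Tg 2 at 2.74.

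Values in subsets of the arrays show how far the members depend on them. The first subset, WT 1 against the mean of Tg 1 and Tg 3, holds the arrays with the lowest levels of those 6 genes. That all 9 members read lower in Tg in any subset was fixed beforehand, since their groups were apart over all 6 arrays. Only the size of the difference could vary. WT 1 was the lowest WT array in 9 of 9 members. Keeping it as the only WT array therefore favours smaller differences, and leaving it out favours larger ones. In the first subset the median difference was -0.56, with single genes from -0.998 (Mrgprb1) to -0.25 (Kit), and only 1 WT mouse stands behind it. Between WT 2 and WT 3 on the one side and Tg 2 on the other, a subset added after seeing the data, the median was -1.52 and the range was -2.79 (Mrgprb1) to -0.77 (Rgs13). Slc6a4 and Rgs13 were the most alike in the 2 subsets in proportion to their size. Slc6a4 read -0.78 in the first and -1.48 in the second, and Rgs13 -0.56 and -0.77. Fcer1a was the least alike in that sense, with -0.30 and -1.71.

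**Figure D3:**
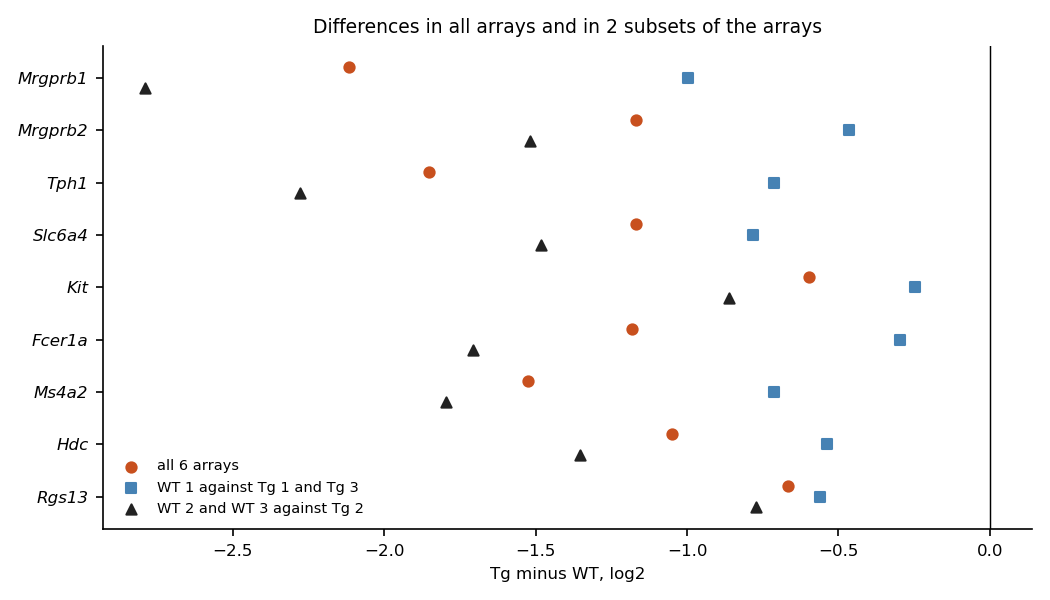
Tg minus WT (horizontal axis, log2) of the 9 genes in all 6 arrays (circles), between WT 1 and the mean of Tg 1 and Tg 3 (squares) and between the mean of WT 2 and WT 3 and Tg 2 (triangles). All points lie below 0, as they must with groups apart in all 6 arrays. The squares, from -0.998 to -0.25, lie nearer to 0 than the circles in every gene. Their only WT array, WT 1, was the lowest WT array of every gene, which favours this.

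The other genes of these pathways give the setting of the members. In 12 lists of mast cell and amine genes, 130 of 137 listed genes had a row of their own, and 0 passed the threshold in limma in either direction. At an unadjusted p under 0.05, 22 were lower and 6 higher in Tg. The groups were apart with Tg lower in 26, or 20%, and with Tg higher in 14, or 10.8%, against 9.35% and 7.36% of all rows. The median difference of the 130 was -0.07. These lists were chosen with results of these data known, so they stand as a description. Counts of genes apart in single lists, given below, stand beside the same shares of 9.35% and 7.36% of all rows.

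The granule protease list read lowest of the 12. The groups were apart with Tg lower in 5 of its 11 genes and higher in 0, and its median difference was -0.75. Of the 11, 6 were below the array median in every array (Cma2, Mcpt1, Mcpt2, Mcpt9, Tpsg1 and Ctsg). With only rows above the array median in 3 or more arrays, which kept Cma1, Mcpt4, Tpsb2 and Cpa3, the median was -1.55, beside -1.18 for the 7 members kept. With only WT 1, Tg 1 and Tg 3 the median of all 11 proteases, dim rows included, was -0.29, in place of -0.75. Cma1, the mast cell chymase, read 5.36, 6.10 and 5.92 in WT and 4.48, 4.16 and 3.996 in Tg, a difference of -1.58 ± 0.23 (limma adjusted p = 0.263). Mcpt4, another chymase, differed by -1.58 ± 0.31 and Tpsb2, a tryptase, by -1.51 ± 0.30 (limma adjusted p = 0.326 for each). Cpa3, the mast cell carboxypeptidase, read 9.70, 10.7 and 10.4 in WT and 9.08, 9.12 and 8.60 in Tg, with 98.2% of all rows dimmer, so at least this defining mast cell transcript was bright in both groups. Cma1, Mcpt4, Tpsb2 and Cpa3 had WT 2 highest and WT 1 lowest, as the members did.

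Downstream of the receptors the differences were smaller. Of 15 genes of the IgE receptor signal chain, 7 were apart with Tg lower and 2 with Tg higher, with a median of -0.29. Over all rows the shares apart were 9.35% with Tg lower and 7.36% with Tg higher. Fcer1g, the gamma chain that macrophages and other myeloid cells also use, differed by -0.25 ± 0.11 (limma adjusted p = 0.504). Vav1, an exchange factor of blood cells, differed by -0.50 ± 0.12, Btk, a kinase, by -0.47 ± 0.14 and Inpp5d, an inhibitory phosphatase, by -0.36 ± 0.11. Macrophage markers, which share these genes, had a median of -0.26 over 10 genes with 8 apart lower, and summed levels of 13.57 to 13.67 in WT and 13.39 to 13.42 in Tg. Their part in the signal chain values was not tested. Of the 10 genes around Kit and its ligand, 3 were apart with Tg lower and none with Tg higher, and the median was -0.08. Those 3 were Pik3cd at -0.41 ± 0.13, Grb2 at -0.26 ± 0.10 and Cbl at -0.15 ± 0.11.

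Among the 9 transcription factors of the mast cell list, 1 was apart, Mitf at -0.22 ± 0.12. Over all rows 9.35% were apart with Tg lower and 7.36% with Tg higher. Gata2 overlapped between the groups, with 5.42, 5.70 and 5.88 in WT and 5.76, 5.41 and 5.29 in Tg. The difference of Gata2 was -0.18 ± 0.17 (limma adjusted p = 0.755). Both genes are also expressed outside mast cells, Gata2 in endothelium and Mitf in macrophages. Of 12 other mast cell receptors and surface proteins, 2 were apart with Tg lower and 1 with Tg higher. The 2 were the integrin gene Itgb7 (-0.50 ± 0.18) and the histamine receptor gene Hrh4 (-0.54 ± 0.21). Hrh4 was below the array median in every array, and its groups lay only 0.0098 apart. The prostaglandin receptor gene Ptger3 was higher (0.36 ± 0.15). Il1rl1, the interleukin-33 receptor, had no row of its own and is not reported.

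Most other Mas-related receptors were dim. Over the 20 receptors other than Mrgprb1 and Mrgprb2 the median difference was 0.00, and 14 were below the array median in every array. Mrgpra4 was the exception in size, with 2.77, 4.47 and 3.95 in WT and 2.50, 1.65 and 2.34 in Tg. Its difference was -1.57 ± 0.45 (limma adjusted p = 0.373), with WT 2 highest and WT 1 lowest. Mrgprx2, which lies between Mrgprb1 and Mrgprb2 in the gene order, differed by -0.55 ± 0.20 (limma adjusted p = 0.449) with overlapping groups. The dim gene Mas1 (0.24 ± 0.10) and the brighter gene Mrgpre (0.25 ± 0.12) were apart with Tg higher. Cross-hybridisation between these related receptors was not tested.

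Around histamine and serotonin, single steps stood apart while most did not. Slc18a2, the vesicle transporter that loads both amines into granules, read 3.78, 4.93 and 4.69 in WT and 3.31, 2.72 and 2.44 in Tg. It was lower in Tg by -1.65 ± 0.35 (limma adjusted p = 0.326), with 0.47 between the groups. The neuronal hydroxylase Tph2 differed by 0.12 ± 0.21. Ddc, the second enzyme of serotonin synthesis, read 1.67, 2.16 and 1.76 in WT and 1.76, 2.17 and 1.64 in Tg, below the array median throughout, and differed by -0.0049 ± 0.19. Pcbd1, which recycles the biopterin cofactor of the hydroxylases and is also a cofactor of a liver and kidney transcription factor, was apart with Tg higher by 0.69 ± 0.11 (limma adjusted p = 0.313). Breakdown enzymes overlapped or differed little. Maoa differed by 0.23 ± 0.14 and Hnmt, which methylates histamine, by 0.06 ± 0.11, both with overlapping groups. Maob was apart with Tg higher by 0.18 ± 0.11.

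Uptake carriers other than Slc6a4 read higher in Tg, and receptors of the amines read in either direction. All 4 other monoamine transporters with a row of their own read higher in Tg on average, with 2 apart, Slc22a2 at 0.94 ± 0.19 (limma adjusted p = 0.326) and Slc29a4 at 0.39 ± 0.15. Slc22a2 read 3.72, 3.26 and 3.40 in WT and 4.64, 4.09 and 4.47 in Tg. Of the histamine receptors, Hrh2 was apart with Tg lower by -0.63 ± 0.20 (limma adjusted p = 0.397). So, barely, was the dim gene Hrh4, given above. Among 14 serotonin receptors 12 were below the array median in every array. Only 1, the dim gene Htr1d, was apart, with Tg higher by 0.22 ± 0.10, where 7.36% of all rows were.

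**Figure D4:**
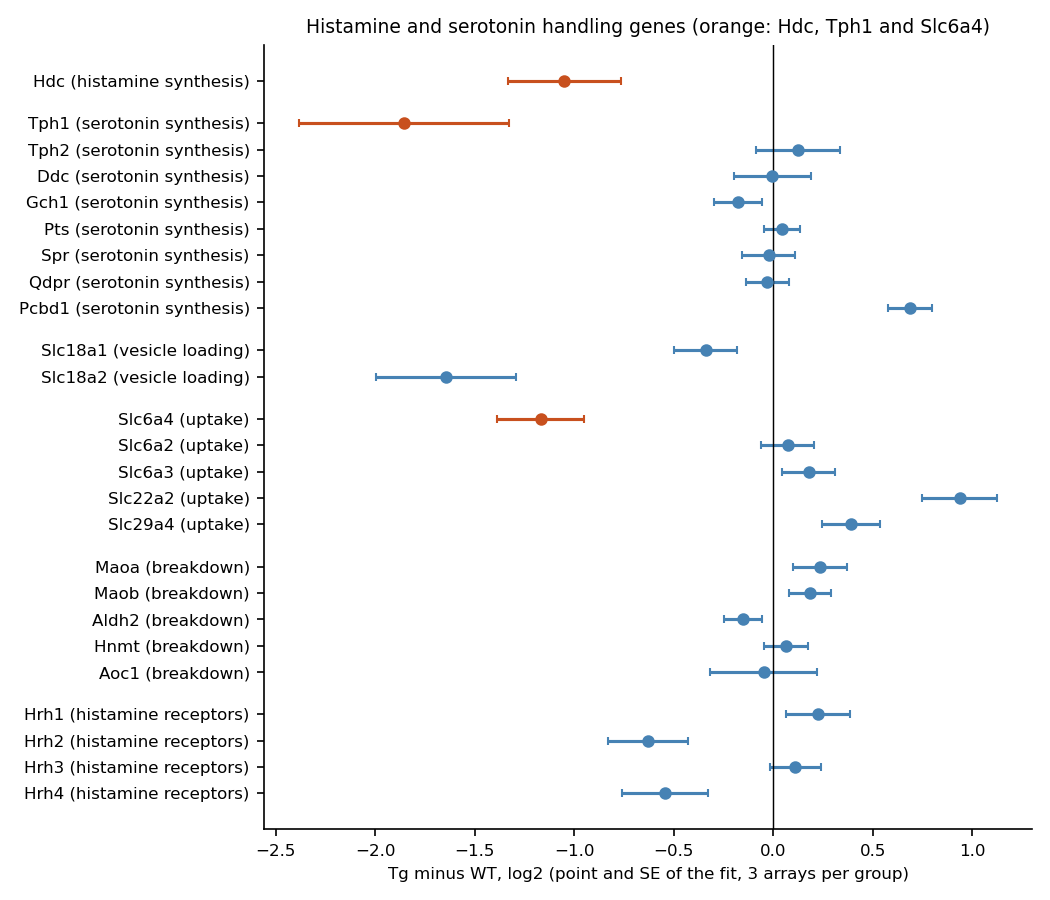
Tg minus WT (horizontal axis, log2) for genes of histamine and serotonin synthesis, vesicle loading, uptake, breakdown and histamine receptors; points are differences and bars the SE of the fit (3 arrays per group), with Hdc, Tph1 and Slc6a4 in orange. Slc18a2 lies at -1.65 beside the 3 orange genes, while Ddc, Tph2 and Hnmt lie between -0.0049 and 0.12 and Slc22a2 lies at 0.94.

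Of the genes for eicosanoid synthesis and the granule proteoglycan, 3 of 7 were apart with Tg lower and 2 with Tg higher. The shares over all rows were 9.35% and 7.36%. Hpgds, the prostaglandin D2 synthase of mast cells and macrophages, differed by -0.41 ± 0.16 and Alox5ap by -0.41 ± 0.12. Ltc4s, the leukotriene C4 synthase, was higher by 0.81 ± 0.16 (limma adjusted p = 0.326). Alox5 and Alox5ap had 2 rows each, of which the brighter is used. With the mean of the rows of a gene the list's median was -0.02, in place of -0.18. Of the 9 other small RGS genes of the family of Rgs13, Rgs16 was apart with Tg lower by -0.65 ± 0.19 and Rgs5, a pericyte gene, with Tg higher by 0.36 ± 0.13. Rgs1, Rgs2 and Rgs18, which lie beside Rgs13 in the gene order, overlapped between the groups and differed by -0.38, -0.18 and -0.23. Rgs2 and Rgs5 also had 2 rows each, of which the brighter is given.

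**Figure D5:**
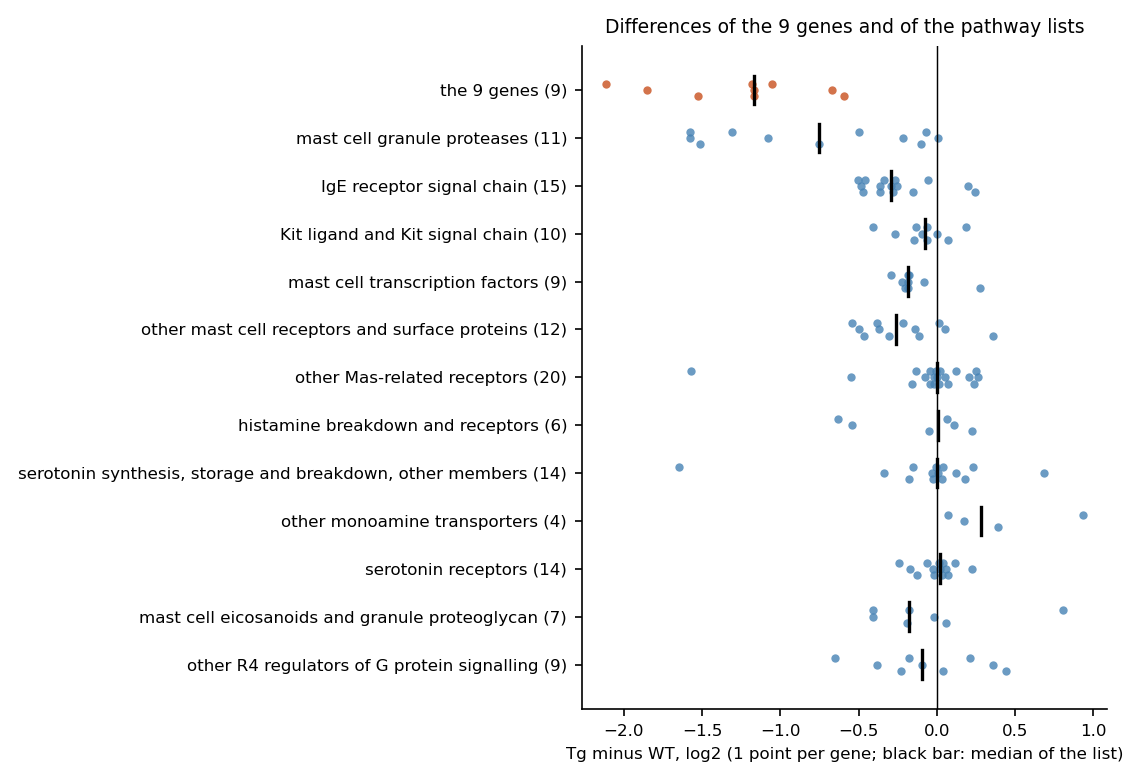
Tg minus WT (horizontal axis, log2) of the 9 genes (orange) and of the measured genes of the 12 pathway lists (blue, number of genes in brackets); each point is a gene and the black bar is the median of the list. The median lies at -1.17 for the 9 genes, at -0.75 for the granule proteases and between -0.29 and 0.28 for the other 11 lists; 6 of the 11 proteases were below the array median in every array, and the protease median without dim rows was -1.55.

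Several members are also known from other cells, whose markers were read beside them. Counts of genes apart in these lists stand beside 9.35% of all rows apart with Tg lower and 7.36% with Tg higher. Basophils share Fcer1a, Ms4a2 and Hdc. Their protease gene Mcpt8 was below the array median in every array, at 1.37 to 1.39 in WT and 1.15 to 1.35 in Tg, and of 8 basophil genes 3 were apart with Tg lower and 1 with Tg higher. Of the 8, 7 read lower in Tg on average, and the median difference was -0.24. Cd200r3, a basophil and mast cell surface receptor gene, differed by -0.81 ± 0.21 and the basophil protease gene Prss34 by -0.56 ± 0.18. The summed level of the 8 ran from 8.01 to 8.25 in WT and from 8.31 to 8.60 in Tg, and the brightest of them, Adgrg1, which other cells express too, read higher in Tg by 0.48 ± 0.17. Platelets carry Slc6a4 and serotonin. Over 7 of 8 platelet genes 0 were apart, the median was -0.01 and the summed level ran from 7.40 to 7.93 in WT and from 7.49 to 7.79 in Tg. Enterochromaffin cells of the gut express Tph1, and the 4 measured genes of that list, Chga, Chgb, Tac1 and Lmx1a, were below the array median in every array. Kit also marks melanocytes and interstitial cells of Cajal. Of 6 melanocyte genes 5 were below the array median in every array, all but Mlana, and the median was 0.06. Of the 3 Cajal genes, none was apart. For Rgs13, 3 of 5 measured germinal centre B cell genes were apart with Tg lower and 1 with Tg higher, with a median of -0.20. Adipocyte markers read the other way, with 6 of 8 measured genes apart with Tg higher and a median of 0.39. Of 7 eosinophil genes 1 was apart, with Tg lower, and of 6 genes of group 2 innate lymphoid cells 0 were. Of those 6, 5 read lower in Tg on average, with a median of -0.25. The lowest of them was Gata3 at -1.18 ± 0.55, with overlapping groups. The part of these cells in the members' values was not tested.

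The genes whose profile over the 6 arrays lay closest to the mean profile of the members were sought among 17301 named genes, by the root mean square distance of centred log2 values. Erv3 was nearest at 0.0889, followed by Cpa3 at 0.141, Lrp8 at 0.194, the protease pseudogene Mcpt-ps1 at 0.205, Ms4a4b at 0.214, Cma1 at 0.215, Tpsb2 at 0.220, Mcpt4 at 0.243, Serpinb1a at 0.255 and Nxpe5 at 0.258. Of these 10 genes, 4 belong to the granule protease list. All 10 had WT 2 highest and WT 1 lowest, which their choice by likeness favours. Erv3, an endogenous retroviral gene, read 2.40, 3.54 and 3.08 in WT and 1.79, 1.66 and 1.76 in Tg. Among the members themselves Mrgprb2 (0.0972) and Fcer1a (0.116) lay closest to the mean profile and Mrgprb1 (0.475), with its larger differences, and Rgs13 (0.462), with its smaller ones, lay farthest.

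Genes next to the members in the RefSeq gene order mostly read alike in both groups. Of 49 distinct neighbours, up to 3 measured genes on either side, 5 were apart with Tg lower and 3 with Tg higher. These are 10.2% and 6.12% of the neighbours, near the shares of 9.35% and 7.36% over all rows. The median difference of the neighbours was -0.02. Next to Kit lie Pdgfra, the receptor gene of fat progenitors, at -0.10 and Kdr, the endothelial receptor gene, at 0.39, both with overlapping groups. Beside Ms4a2, the related genes Ms4a6d (-0.64), Ms4a6b (-0.38) and Ms4a4d (-0.30), the first of them known from macrophages, were all apart with Tg lower. None of the 49 passed the threshold in limma, with a smallest adjusted p of 0.325.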

How the data were processed

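The labels' protocols give Trizol extraction of frozen fat pads and biotin labelling with an Affymetrix WT Plus kit. The deposited values are log2 signals, 1 per array and row, with array medians from 2.64 to 2.75. RMA and limma are named, without versions or settings, per the submitters' processing notes. RMA normalizes between arrays and compresses differences between dim signals. The genome build was not given in the sources used here.

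Of 41345 rows, 23521 named 1 gene, 1814 several and 16010 none. A gene stood for itself through its row with the highest mean over the 6 arrays among rows naming only that gene. Tg was compared with WT by the moderated test of limma (version 3.58.1, run in R 4.3.3) in its 2-sided form, with no filter and no covariate, on the log2 values, with Benjamini-Hochberg adjustment over all rows and a threshold of 0.05. "Apart" means that no Tg array overlaps the WT range. For a single value, 3 arrays against 3 allow no 2-sided exact permutation p under 0.1. The number of arrays limits the precision. The procedure was tested on simulated data.

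The members and the gene lists were chosen with earlier results of these data known. From each pathway list up to 3 genes with the smallest p among those apart are named, beside a set of 15 always named and the 10 most alike; other genes were chosen after their values were seen. Motifs were searched in RefSeq windows of GRCm38.p6. Alternatives left out each array, blocked on replicate number, renormalized the arrays, filtered dim rows, changed the variance model, weighted arrays, changed the rows used or the threshold, or kept subsets of arrays.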

Additional observations from a re-analysis of the deposited data

How the results depend on the processing

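Under 17 alternatives the members gave 151 differences, all below 0. The groups of all 9 members were apart to begin with. Leaving out arrays or rows, weighting arrays or blocking therefore could not change the sign. Of the 151 differences, 141 moved by less than the replicate SD, 8 moved further with only WT 1, Tg 1 and Tg 3, and 2 with only WT 2, WT 3 and Tg 2. With only WT 1, Tg 1 and Tg 3 the median difference of the members was -0.56, in place of -1.17. WT 1 was the lowest WT array in every member, which favours a smaller difference there. Leaving out 1 array at a time gave medians from -1.52 (without WT 1) to -0.83 (without WT 2), and 0 rows past the threshold each time. The count over all rows was also 0 at an adjusted p of 0.1, and 4263 at an unadjusted p under 0.05. With the replicate block 0 rows passed the threshold, 4034 had an unadjusted p under 0.05 and the median of the members was -1.17. Arrays of the same number correlated at -0.038, 0.007 and -0.043 in their deviations from the group means, so the numbers were not taken to pair the mice. When arrays were centred on their medians, the share of rows apart with Tg lower was 5.49%, and the median of the members was -1.10. The filter on dim rows left out Mrgprb2 and Rgs13 and kept 7 members. It changes no value, so their groups stayed apart. The same filter moved the median of the granule proteases from -0.75 to -1.55 and that of the other monoamine transporters from 0.28 to 0.94, since it left 4 proteases and 1 transporter.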
